A study of Mus musculus with 96 samples.

Results

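The 44 genes described here act in the interferon response and in antigen presentation, and RNA-seq gave their transcript levels in organoids of mouse intestine over time. They were chosen by name, and all 44 were found among the 55536 genes of the expression tables. They are 5 transcription factors (Stat2, Irf1, Irf7, Irf8 and Irf9), 3 sensors (Ifih1, Dhx58 and Zbp1), 19 antiviral targets (Ifit1, Ifit2, Ifit3, Isg15, Mx1, Mx2, Oas1a, Oas1g, Oas2, Oas3, Oasl1, Oasl2, Rsad2, Usp18, Bst2, Parp14, Xaf1, Rtp4 and Trim25) and 3 guanylate-binding proteins (Gbp2, Gbp3 and Gbp7). A further 10 serve class I presentation (B2m, H2-K1, H2-D1, Tap1, Tap2, Tapbp, Psmb8, Psmb9, Psmb10 and Nlrc5), and 4 serve class II presentation (Ciita, Cd74, H2-Aa and H2-Ab1).

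Type I interferons are secreted proteins whose receptor activates the kinases Jak1 and Tyk2, which phosphorylate Stat2 among others. With Irf9 it forms part of a complex that binds interferon-stimulated response elements in the promoters of antiviral genes, and Irf7, itself such a target, amplifies interferon production. Class I molecules, a heavy chain with B2m, show peptides cut by the proteasome and carried into the endoplasmic reticulum by Tap1 and Tap2. Class II molecules depend on the transactivator Ciita and are found mainly on professional immune cells, and on intestinal epithelium chiefly when interferon gamma is present.

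Organoids are epithelial cultures that grow from intestinal stem cells. Those studied came from C57BL/6 mice of 4 genotypes, labelled APCmin/-;BMAL1-/- (Apc-min Bmal1-null), APCmin/-;BMAL1+/+ (Apc-min), APC+/+;BMAL1-/- (Bmal1-null) and APC+/+;BMAL1+/+ (control). Apc restrains Wnt signalling, and Bmal1 (symbol Arntl) is a core clock protein that activates transcription. The labels call the cultures of both Apc-min genotypes adenoma organoids and say that these grew in EN medium while the others grew in ENR medium, so Apc genotype and medium cannot be told apart. All cultures were exposed to 0.1 µM dexamethasone for 1 h, which aligns the clocks of the cells, and were collected at 12 time points from 24 to 46 h. There were 2 organoid lines per genotype, but the labels do not give the line of each library, so p-values reflect how far libraries, and not lines, lie apart.

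Each genotype has 22 libraries, which makes 88, with 28.8 to 48.1 M uniquely mapped reads. Values are TPM, a length-scaled share of a library's transcripts, so that fewer cells of a type and less RNA per cell cannot be told apart. Arntl had 6.31 to 10.9 TPM in Bmal1-null organoids, against 11.3 to 20.7 TPM in control organoids. At 28 h 1 library labelled Apc-min Bmal1-null (14.7 TPM of Arntl) and 1 labelled Apc-min (4.09 TPM) went against their labels over the genes that separate these genotypes, and they are kept under their labels, with values given without them where they matter. The lower-numbered and the higher-numbered library of each genotype and time are called library sets here, and Xist, a marker of female cells, averaged 63.97 TPM in the higher-numbered set of Apc-min Bmal1-null organoids and 67.04 TPM in that of Bmal1-null organoids, while the other sets averaged at most 0.097 TPM. Sex and Bmal1 genotype thus cannot be told apart in the higher-numbered set, and over all libraries they are partly mixed. The part of sex in the results was not tested. The 8 epithelial marker genes summed to medians of 10420, 7656, 15070 and 14620 TPM in Apc-min Bmal1-null, Apc-min, Bmal1-null and control organoids, and the 19 immune cell markers to medians of 13.6, 14.7, 4.22 and 4.03 TPM. In the same order, the 5 endothelial markers summed to medians of 8.55, 3.27, 0.285 and 0.31 TPM, and the 7 fibroblast markers to medians of 1.77, 8.06, 9.31 and 10.6 TPM. Vim alone averaged 1.995, 7.74, 9.38 and 10.4 TPM, and no other fibroblast marker averaged more than 0.298 TPM. Tek and Cdh5 averaged 6.47 and 2.06 TPM in Apc-min Bmal1-null and 0.631 and 7.18 TPM in Apc-min organoids. Pecam1, Kdr and Plvap averaged at most 0.263 TPM in any genotype, so neither sum shows that such cells were present. The lysosomal protein Cd68 gave most of the immune sum in Apc-min organoids (mean 13.2 TPM), and the T cell gene Cd8a and the natural killer cell gene Nkg7 were listed at 0 in every library. Laptm5 averaged 4.91 TPM in Apc-min Bmal1-null and 0.567 TPM in Apc-min organoids. Itgam went the other way from the immune sum, with means of 0.0764 TPM in Apc-min and 1.285 TPM in control organoids. Reads left unmapped as too short averaged 1.31 and 1.3% in Apc-min Bmal1-null and Apc-min libraries and 6.0 and 6.73% in Bmal1-null and control libraries, and the part of these differences in the results was not tested.

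Promoters of 4 members are shown because their transcripts moved in opposite directions with Apc-min. Each is the RefSeq sequence (build GRCm38.p6) of 300 bases, 250 before the start of transcription and 50 after it, on the strand of the gene. Capitals mark GAAANNGAA on either strand, a core of the interferon-stimulated response element, and overlapping matches run together. The Ifit1 promoter lies at chr19:34640639-34640938 on the plus strand, that of Bst2 at chr8:71537423-71537722 on the minus strand, that of B2m at chr2:122147437-122147736 on the plus strand and that of Tap1 at chr17:34187306-34187605 on the plus strand.
Ifit1: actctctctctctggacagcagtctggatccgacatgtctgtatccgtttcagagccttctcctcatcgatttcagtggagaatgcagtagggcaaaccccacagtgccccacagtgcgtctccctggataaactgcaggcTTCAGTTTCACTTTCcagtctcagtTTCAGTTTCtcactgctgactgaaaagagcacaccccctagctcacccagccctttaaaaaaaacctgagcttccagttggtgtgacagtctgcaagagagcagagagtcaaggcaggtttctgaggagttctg
Bst2: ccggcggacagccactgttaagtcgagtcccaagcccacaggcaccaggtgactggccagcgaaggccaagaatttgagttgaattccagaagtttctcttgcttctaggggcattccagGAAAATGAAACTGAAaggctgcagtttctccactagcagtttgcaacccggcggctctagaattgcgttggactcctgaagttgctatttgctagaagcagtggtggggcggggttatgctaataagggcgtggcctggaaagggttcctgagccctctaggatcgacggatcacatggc
B2m: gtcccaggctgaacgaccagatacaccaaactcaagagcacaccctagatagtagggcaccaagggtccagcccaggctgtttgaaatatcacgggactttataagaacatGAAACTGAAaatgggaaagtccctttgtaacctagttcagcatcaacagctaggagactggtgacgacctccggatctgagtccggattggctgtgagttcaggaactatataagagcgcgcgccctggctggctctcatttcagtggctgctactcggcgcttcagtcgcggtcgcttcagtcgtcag
Tap1: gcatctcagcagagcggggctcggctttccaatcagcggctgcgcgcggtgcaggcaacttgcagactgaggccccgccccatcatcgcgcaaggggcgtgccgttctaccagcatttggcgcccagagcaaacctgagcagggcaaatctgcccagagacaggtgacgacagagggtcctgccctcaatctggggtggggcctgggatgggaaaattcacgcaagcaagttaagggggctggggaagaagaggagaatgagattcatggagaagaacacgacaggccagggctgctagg

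GAAANNGAA matched 3 times in the Ifit1 window, 2 times in that of Bst2 and 1 time in that of B2m, where it begins 139 bases before the start. The Tap1 window holds no match. Promoters of 31 of the 44 members were in the RefSeq table, and 15 of the 31 held the motif in at least 1 promoter. These members had 37 promoters, of which 15 held it, beside 8.56% of all 32851 promoters of the same length. Of the other motifs searched on both strands, TTCNNNGAA (the core bound by Stat factors) was in promoters of 7 of the 31 members and in 8.3% of all promoters, CCAAT in those of 17 members and 37.4% of all, and CACGTG (the E-box bound by Bmal1) in those of 2 members, Trim25 and Psmb10, and 7.15% of all. In that order, 7, 19 and 2 of the 37 member promoters held them. The Tap1 window overlaps by 275 bases the window of Psmb9, which is read in the opposite direction from a start 226 bases away. These matches describe the windows shown, and binding was not measured.

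The first comparison asks how these genes differed with Apc-min. By their fitted values of TPM + 1, Irf8, Oasl1, Irf7, B2m and Ifit1 in Apc-min organoids were at 0.137, 0.143, 0.148, 0.263 and 0.351 times the control value, while Bst2, Mx1 and Tap1 were at 3.75, 3.32 and 2.58 times it. Transcription factors, antiviral targets and class I genes each had members that rose and members that fell. A gene was tested where its mean reached 1 TPM in either genotype, differences are those of log2(TPM + 1) fitted by limma with time points as levels, and calls were made at 0.05 for p adjusted over all genes. Of the 44 members 33 were tested, and 9 were called higher and 19 lower. Mx1, Psmb8, Cd74, Gbp3, Usp18, Oas3, Rtp4, Ifit1 and Oas1g reached the filter in 1 genotype only. The filter thus favoured a difference in these 9 members and their calls support nothing further, and with no filter they were called as well. Of all 13663 genes tested 50.5% were called higher and 31.1% lower, so calls were common among all genes. Overlap of ranges between genotypes was not counted over all genes in any comparison. A lack of overlap thus does not set a member apart from other genes. The median log2 difference was -0.34 over the tested members and 0.17 over all genes. Median-of-ratios scaling shifted the median of all genes by -0.15 and left 50.9% of the called genes higher, beside 61.8% without it. Under that scaling no called member that was tested changed direction, Tapbp lost its call (log2 difference 0.165, limma adjusted p = 0.0631), and H2-D1 (-0.16) and Trim25 (-0.25) were called lower.

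**Figure D1:**
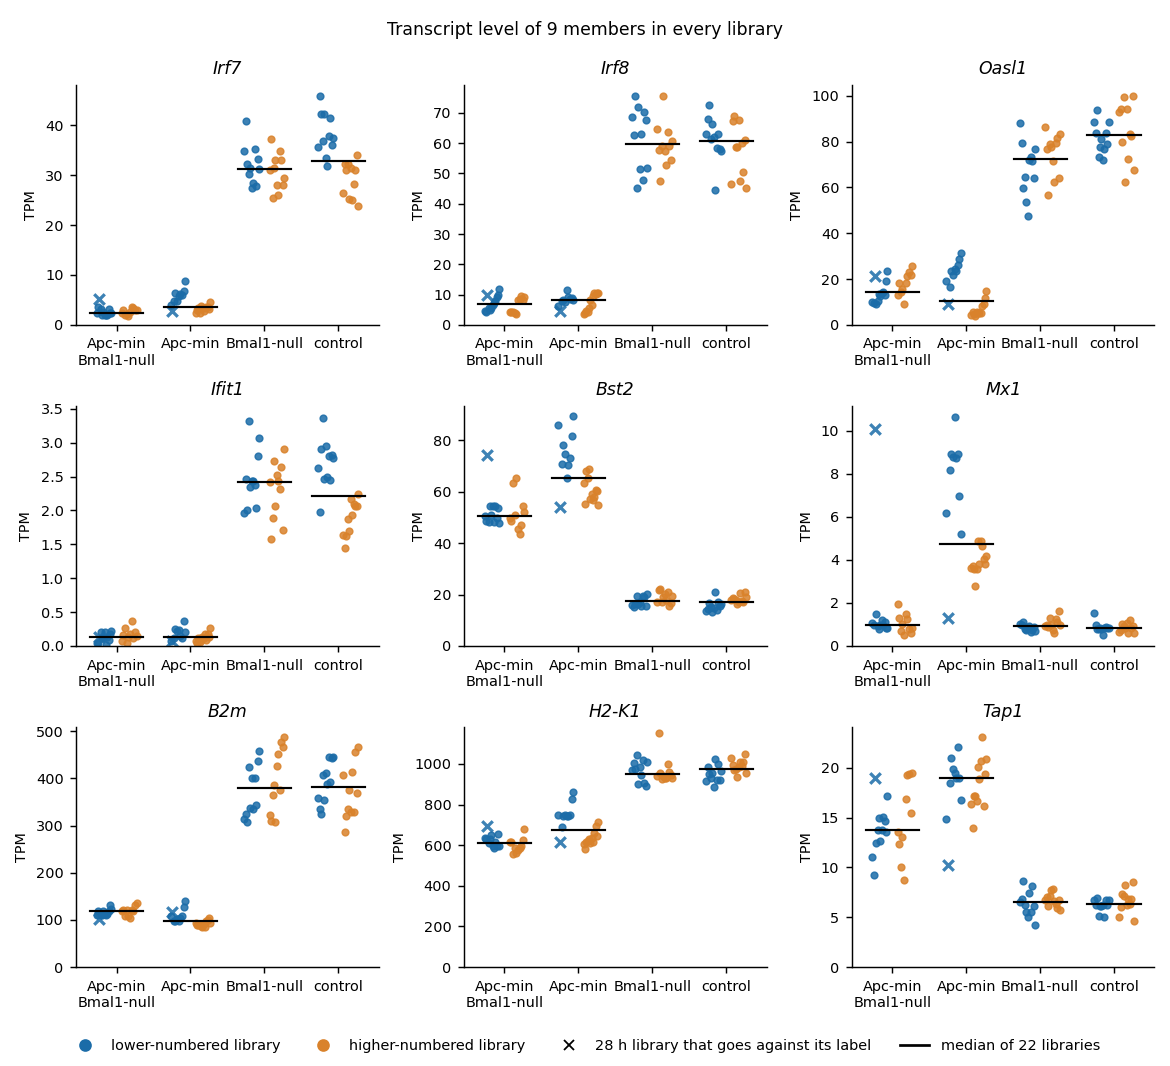
TPM of 9 members (linear axes from 0) in each of the 88 libraries, by genotype, with blue points for lower-numbered and orange points for higher-numbered libraries, crosses for the 28 h libraries that go against their labels and black lines for the median of 22 libraries. Irf7, Irf8, Oasl1, Ifit1, B2m and H2-K1 lie lower and Bst2 and Tap1 lie higher in both Apc-min genotypes with no overlap, whereas the Mx1 median is 0.96 TPM in Apc-min Bmal1-null and 4.76 TPM in Apc-min organoids, and the crossed Apc-min Bmal1-null library stands at 10.1 TPM.

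Among the transcription factors, Irf8 and Irf7 fell furthest. Irf8, best known as a regulator of myeloid cells, had 3.51, 8.11 and 11.5 TPM (lowest, median and highest library) in Apc-min organoids, against 44.7, 60.6 and 72.5 TPM in control organoids (log2 difference -2.87 ± 0.10 SE, limma adjusted p = 3.16e-24). Irf7 had 2.35, 3.60 and 8.87 TPM in Apc-min organoids, against 23.8, 32.8 and 45.9 TPM in control organoids (log2 difference -2.76 ± 0.11, limma adjusted p = 7.58e-23). For both genes the highest Apc-min library lay below the lowest control library. Stat2, a subunit of the complex that type I interferon activates, had 6.99, 11.2 and 16.1 TPM in Apc-min organoids and 10.4, 18.4 and 22.02 TPM in control organoids (log2 difference -0.62 ± 0.10, limma adjusted p = 1.86e-06). Irf1, an activator of class I genes, went the other way, with 22.7, 32.3 and 38.2 TPM in Apc-min organoids and 17.95, 21.4 and 27.9 TPM in control organoids (log2 difference 0.56 ± 0.06, limma adjusted p = 5.19e-11). The ranges of Stat2 and Irf1 overlapped between the genotypes, and without the doubted library those of Irf1 did not. Irf9, the DNA-binding partner of Stat2, missed the threshold at a log2 difference of 0.26 ± 0.13 (limma adjusted p = 0.056).

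Both tested sensors of viral RNA fell. Ifih1, which encodes MDA5, had 3.09, 4.60 and 7.23 TPM in Apc-min organoids and 5.39, 10.3 and 15.4 TPM in control organoids (log2 difference -0.84 ± 0.10, limma adjusted p = 4.80e-09). Dhx58, which encodes the related LGP2, had 0.76, 1.26 and 2.85 TPM in Apc-min organoids and 1.47, 2.16 and 3.19 TPM in control organoids (log2 difference -0.41 ± 0.09, limma adjusted p = 8.57e-05). Their ranges overlapped, and with the means of the library sets as units Dhx58 was not called (limma adjusted p = 0.0818). Zbp1, a sensor of Z-form nucleic acid, stayed under the filter with medians of 0.21 TPM in Apc-min and 0.795 TPM in control organoids.

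Of the 19 antiviral targets 14 were tested, and 4 rose and 8 fell. Oasl1, known in mice to restrain translation of Irf7, had 3.67, 10.4 and 31.1 TPM in Apc-min organoids, against 62.4, 82.9 and 99.8 TPM in control organoids (log2 difference -2.81 ± 0.21, limma adjusted p = 2.32e-14). Ifit1, which binds foreign RNA and whose promoter is printed above, had 0.04, 0.125 and 0.37 TPM in Apc-min organoids, against 1.45, 2.21 and 3.37 TPM in control organoids (log2 difference -1.51 ± 0.05, limma adjusted p = 5.23e-24). Neither gene overlapped between the genotypes, nor did Oas3, which had 0.10, 0.215 and 0.43 TPM in Apc-min and 0.72, 1.23 and 2.17 TPM in control organoids. Bst2, or tetherin, which holds budding virus at the cell surface, had 54.2, 65.4 and 89.4 TPM in Apc-min organoids, against 13.1, 17.2 and 21.1 TPM in control organoids (log2 difference 1.91 ± 0.07, limma adjusted p = 2.57e-24). Mx1, an antiviral GTPase of which C57BL/6 mice carry a defective allele, had 1.32, 4.76 and 10.6 TPM in Apc-min organoids and 0.49, 0.83 and 1.54 TPM in control organoids (log2 difference 1.73 ± 0.13, limma adjusted p = 1.17e-14). Bst2 did not overlap between the genotypes, and Mx1 overlapped only through the Apc-min library that goes against its label. Ifit1 and Bst2 thus had differences of opposite sign, and both printed promoters hold the response element core. Ifit1 reached the filter in control organoids only, and the part of the motif in these differences was not tested.

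The other targets that fell were Oas1g (log2 difference -1.40), Oas1a (-1.21) and Oas3 (-0.91), which make the oligoadenylates that activate RNase L, the ubiquitin-like Isg15 (-0.88), its protease Usp18 (-0.45) and Rtp4 (-0.34). Xaf1, linked to apoptosis (0.57), and the ADP-ribosyltransferase Parp14 (0.50) rose, and Oasl2 (0.21) and the ubiquitin ligase Trim25 (-0.10) were not called. Oas1a and Oas1g share 40.6 and 31% of their 101-base transcript windows with each other, so the split of reads between them is uncertain. Ifit2, Ifit3, Mx2, Oas2 and Rsad2 had means under 1 TPM in every genotype, the highest being that of Ifit2 in Apc-min Bmal1-null organoids (0.908 TPM). Ifit3 shares 31.3% of its windows with Ifit3b and is as uncertain.

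The guanylate-binding proteins, GTPases that interferon gamma induces strongly, were close to 0 in control organoids. Gbp3 had 0.26, 1.055 and 1.47 TPM in Apc-min organoids, against 0, 0.02 and 0.33 TPM in control organoids (log2 difference 0.94 ± 0.06, limma adjusted p = 1.56e-17). Gbp2 (medians of 0.795 and 0.02 TPM in Apc-min and control organoids) and Gbp7 (0.335 and 0.04 TPM) did not reach the filter. All 3 thus had a higher median in Apc-min organoids, at levels near 1 TPM or below.

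In the class I pathway 9 of 10 genes were tested, and 2 rose and 5 fell. B2m, the light chain that every class I molecule needs at the cell surface, had 84.7, 97.8 and 140.1 TPM in Apc-min organoids, against 285.9, 381.7 and 466.0 TPM in control organoids (log2 difference -1.93 ± 0.05, limma adjusted p = 5.98e-29). The heavy chain H2-K1 had 579.5, 674.9 and 860.3 TPM in Apc-min organoids, against 887.6, 973.0 and 1047 TPM in control organoids (log2 difference -0.51 ± 0.04, limma adjusted p = 2.59e-14). The other heavy chain, H2-D1, had medians of 350.6 and 355.9 TPM in Apc-min and control organoids (log2 difference 0.00 ± 0.04, limma adjusted p = 0.944). B2m and H2-K1 did not overlap between the genotypes, and H2-D1 overlapped over most of its range. Tap1, a chain of the peptide transporter, had 10.3, 18.9 and 23.1 TPM in Apc-min organoids, against 4.62, 6.33 and 8.54 TPM in control organoids (log2 difference 1.37 ± 0.07, limma adjusted p = 9.76e-20). Its partner chain Tap2 had a log2 difference of 0.00 ± 0.08 (limma adjusted p = 0.989), and Tapbp, or tapasin, which bridges transporter and class I molecule, rose by 0.33. The proteasome subunit Psmb10 had 43.9, 69.5 and 100.7 TPM in Apc-min organoids and 82.2, 99.6 and 147.2 TPM in control organoids (log2 difference -0.60 ± 0.10, limma adjusted p = 1.09e-06). Psmb9 (-0.34) and Psmb8 (-0.16), the other interferon-inducible subunits, also fell, so Psmb9 and Tap1, whose promoter windows overlap, were called in opposite directions. Nlrc5, the class I transactivator, had a highest library of 0.18 TPM in Apc-min and 0.23 TPM in control organoids.

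Class II transcripts were scarce. H2-Aa was listed at 0 in every control library and reached 0.06 TPM in Apc-min organoids, and Ciita reached 0.08 TPM in Apc-min and 0.03 TPM in control organoids. Cd74, the invariant chain, had 0.22, 1.25 and 1.71 TPM in Apc-min organoids and 0, 0.155 and 0.80 TPM in control organoids (log2 difference 0.78 ± 0.07, limma adjusted p = 3.48e-12). H2-Ab1 had 0, 0.54 and 6.38 TPM in Apc-min organoids and 0.61, 1.77 and 3.47 TPM in control organoids (log2 difference -0.53 ± 0.20, limma adjusted p = 0.0178). The H2-Ab1 call rests on the higher-numbered set: the log2 difference was -1.37 in the higher-numbered libraries alone and 0.63 in the lower-numbered libraries alone, and the gene was not called with set means as units (limma adjusted p = 0.368).

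The same comparison was made on a Bmal1-null background, between Apc-min Bmal1-null and Bmal1-null organoids, with no library in common with the first. Of 28 members tested, 3 rose and 20 fell, while 45.7% of all 13404 genes tested were called higher and 38.8% lower. Mx1, Rtp4, Ifit1, Xaf1, Oas1g and H2-Ab1 reached the filter in 1 genotype only. The filter thus favoured a difference in these 6 members, and their calls support nothing further. With no filter Rtp4, Ifit1, Oas1g and H2-Ab1 were called as well, and Mx1 and Xaf1 were not. The median log2 difference was -0.60 over the tested members and 0.07 over all genes, and median-of-ratios scaling moved the median of all genes by -0.11. Irf7 had 1.81, 2.46 and 5.24 TPM in Apc-min Bmal1-null libraries, against 25.5, 31.3 and 40.98 TPM in Bmal1-null organoids (log2 difference -3.15 ± 0.07, limma adjusted p = 8.78e-31). Irf8 had 3.46, 6.88 and 11.7 TPM in Apc-min Bmal1-null libraries, against 45.2, 59.9 and 75.5 TPM in Bmal1-null organoids (log2 difference -3.04 ± 0.10, limma adjusted p = 4.49e-25). Both were again without overlap, and Stat2 (-1.05), Irf9 (-0.50), Ifih1 (-1.05) and Dhx58 (-0.58) were also lower, while Irf1 was higher (0.35).

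Of the antiviral targets 12 were tested on this background, with 1 higher and 7 lower. Oasl1 had 9.06, 14.2 and 25.9 TPM in Apc-min Bmal1-null libraries, against 47.5, 72.5 and 88.1 TPM in Bmal1-null organoids (log2 difference -2.15 ± 0.10, limma adjusted p = 2.52e-20). Ifit1 had 0.02, 0.13 and 0.37 TPM in Apc-min Bmal1-null libraries, against 1.58, 2.42 and 3.32 TPM in Bmal1-null organoids (log2 difference -1.55 ± 0.05, limma adjusted p = 1.13e-26). Bst2 had 43.7, 50.6 and 74.3 TPM in Apc-min Bmal1-null libraries, against 15.3, 17.5 and 22.02 TPM in Bmal1-null organoids (log2 difference 1.502 ± 0.05, limma adjusted p = 2.32e-25). These 3 genes did not overlap between the genotypes, and such overlap was not counted over all genes. Oas1g fell (log2 difference -1.12 ± 0.07), with 0.50, 0.835 and 1.79 TPM in Apc-min Bmal1-null libraries and 1.78, 3.27 and 3.99 TPM in Bmal1-null organoids. Mx1, unlike in the first comparison, was not called (log2 difference 0.16 ± 0.13, limma adjusted p = 0.256). No guanylate-binding protein passed the filter, and Gbp2 had medians of 0.215 TPM in Apc-min Bmal1-null and 0.02 TPM in Bmal1-null organoids.

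In class I presentation 1 of the 8 genes tested rose and 6 fell on the Bmal1-null background. B2m had 101.1, 118.1 and 135.4 TPM in Apc-min Bmal1-null libraries, against 308.0, 380.8 and 488.2 TPM in Bmal1-null organoids (log2 difference -1.69 ± 0.04, limma adjusted p = 7.47e-31). H2-K1 had 555.5, 612.3 and 696.1 TPM in Apc-min Bmal1-null libraries, against 891.9, 950.7 and 1150 TPM in Bmal1-null organoids (log2 difference -0.65 ± 0.03, limma adjusted p = 1.03e-21). Tap1 had 8.79, 13.8 and 19.5 TPM in Apc-min Bmal1-null libraries, against 4.22, 6.56 and 8.66 TPM in Bmal1-null organoids (log2 difference 0.99 ± 0.08, limma adjusted p = 2.24e-13). None of the 3 overlapped. Tap2 fell on this background (log2 difference -0.60 ± 0.06, limma adjusted p = 5.93e-12), with 2.22, 2.83 and 5.19 TPM in Apc-min Bmal1-null and 4.15, 4.66 and 5.98 TPM in Bmal1-null organoids, as did Psmb9 (-0.53), Tapbp (-0.38) and H2-D1 (-0.24). H2-Ab1, the 1 class II gene tested, had 0, 0.08 and 1.82 TPM in Apc-min Bmal1-null libraries and 0.79, 1.64 and 2.73 TPM in Bmal1-null organoids (log2 difference -1.20 ± 0.10, limma adjusted p = 8.29e-14).

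**Figure D2:**
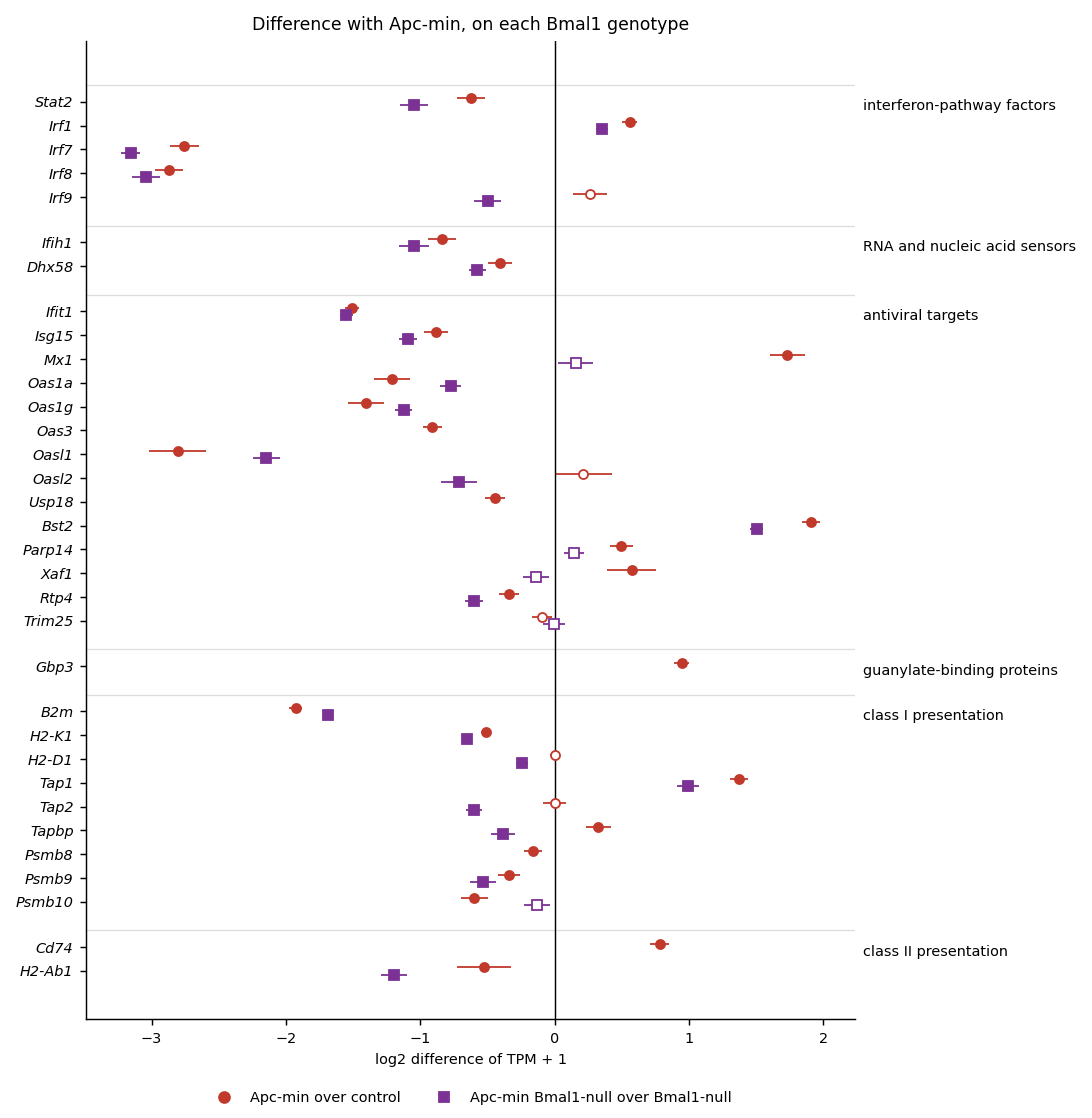
Log2 difference of TPM + 1 (horizontal axis) with its standard error for each tested member, by role, in Apc-min over control organoids (red circles) and in Apc-min Bmal1-null over Bmal1-null organoids (purple squares), with filled symbols for members called at an adjusted p under 0.05. Irf7, Irf8, Oasl1, Ifit1 and B2m lie below -1.5 in both comparisons and Bst2 stands at 1.907 and 1.502, while Mx1 stands at 1.73 on the Bmal1 wild-type and 0.16 on the Bmal1-null background.

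By role, the median log2 differences with Apc-min were -0.39 for antiviral targets, -0.16 for class I genes and 0.13 for the 2 class II genes tested. On the Bmal1-null background they were -0.66 for antiviral targets, -0.46 for class I genes and -1.20 for the 1 class II gene tested. That gene, H2-Ab1, reached the filter in Bmal1-null organoids only, as Cd74 did in Apc-min organoids only in the first comparison. Both antiviral medians also include members that reached the filter in 1 genotype only. So does the class I median of -0.16 with Apc-min, which is the value of such a member, Psmb8. Members of a role differed widely: in Apc-min over control organoids, antiviral targets ran from -2.81 (Oasl1) to 1.91 (Bst2) and class I genes from -1.93 (B2m) to 1.37 (Tap1). The roles were described and not tested against each other.

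Other genes of these pathways were described for the same comparison, as 43 genes in 6 lists. Among receptors and kinases, 2 rose and 4 fell of 9 tested, led by Ifngr1, a chain of the interferon gamma receptor, with medians of 58.6 TPM in Apc-min and 260.7 TPM in control organoids (log2 difference -2.08), and Jak2 (-0.99). No interferon ligand of the 6 listed passed the filter, and Ifne, an interferon of epithelia, had medians of 0.58 TPM in Apc-min and 0 TPM in control organoids, with Apc-min means of 1.41 TPM in the lower-numbered and 0.221 TPM in the higher-numbered set. Of 9 induction genes 4 rose and 3 fell, among them Tmem173, which encodes the DNA-sensing adaptor STING, with medians of 38.9 and 3.37 TPM in Apc-min and control organoids (log2 difference 2.73), and the adaptor Ticam1 (-1.63). Tmem173 ran from 9.62 to 25.9 TPM in the lower-numbered and from 38.9 to 60.9 TPM in the higher-numbered Apc-min libraries. Its log2 differences in these sets were 1.57 and 3.59. Negative regulators gave 1 rise (Socs1, 0.28) and 1 fall (Ptpn6, -0.64) of 4. The Ptpn6 difference was -0.204 in the lower-numbered and -0.915 in the higher-numbered libraries. Mean Socs1 was 0.862 TPM in Apc-min and 0.873 TPM in control organoids of the lower-numbered set, and 1.4 and 0.634 TPM in those of the higher-numbered set, and the gene was not called with set means as units (limma adjusted p = 0.145). Further class I genes gave 2 rises and 2 falls of 7, with the falls in H2-T23 (-0.91) and the peptide-trimming Erap1 (-0.75). Each fall came mostly from 1 set: mean H2-T23 was 100.6 TPM in Apc-min and 115.3 TPM in control organoids of the lower-numbered set (limma adjusted p = 0.173), against 39.4 and 106.0 TPM in the higher-numbered set, and the gene was not called with set means as units (limma adjusted p = 0.0635). Mean Erap1 was 16.2 TPM in Apc-min and 44.7 TPM in control organoids of the lower-numbered set, against 27.7 and 31.7 TPM in the higher-numbered set (limma adjusted p = 0.346). Further class II genes gave 3 rises and 4 falls of 7, and the largest were in proteases: Ctss, which trims the invariant chain, had medians of 0.055 TPM in Apc-min and 39.5 TPM in control organoids (log2 difference -5.14), and Ctsh had 333.2 and 71.3 TPM (log2 difference 2.22). On the Bmal1-null background Ctss (-4.79), Tmem173 (2.70), Ctsh (2.26), Ticam1 (-1.83), Ifngr1 (-1.74) and H2-T23 (-1.97) had the same sign and were called. There Ifne passed the filter and was called higher (log2 difference 0.98, limma adjusted p = 3.23e-16).

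The second comparison asks how loss of Bmal1 related to these genes in Apc-min organoids. Of 27 members tested, 4 were higher and 21 lower in Apc-min Bmal1-null than in Apc-min organoids, while 24.6% of all 12885 genes tested were called higher and 35.7% lower. Cd74, Gbp3, Xaf1 and H2-Ab1 reached the filter in 1 genotype only, so their calls support nothing further, and with no filter these 4 were called too. The median log2 difference was -0.34 over the tested members and -0.04 over all genes. The largest falls were in the antiviral targets Mx1, Oasl2 and Xaf1, the class II gene H2-Ab1 and the class I gene Tapbp. With set means as units 0 members were called higher and 5 lower (Mx1, Gbp3, Tapbp, Stat2 and Cd74), beside 0 and 7 without the doubted libraries. Set means called 4.21% of all genes higher and 10.7% lower, or 4.74 and 12.5% without the doubted libraries.

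Mx1 had 0.52, 0.96 and 10.1 TPM in Apc-min Bmal1-null libraries, against 1.32, 4.76 and 10.6 TPM in Apc-min organoids (log2 difference -1.47 ± 0.19, limma adjusted p = 8.06e-08). Without the doubted libraries its ranges, 0.52 to 1.93 TPM in Apc-min Bmal1-null and 2.79 to 10.6 TPM in Apc-min organoids, did not overlap. Oasl2 had 0.72, 1.44 and 10.4 TPM in Apc-min Bmal1-null libraries and 1.82, 3.63 and 13.1 TPM in Apc-min organoids (log2 difference -1.15 ± 0.23, limma adjusted p = 7.97e-05). Xaf1 had 0.32, 0.735 and 4.71 TPM in Apc-min Bmal1-null libraries and 0.87, 2.00 and 8.79 TPM in Apc-min organoids (log2 difference -0.93 ± 0.20, limma adjusted p = 1.80e-04). In all 3 genes the highest Apc-min Bmal1-null library was the 28 h library that goes against its label. Oasl1 had 9.06, 14.2 and 25.9 TPM in Apc-min Bmal1-null libraries and 3.67, 10.4 and 31.1 TPM in Apc-min organoids (log2 difference 0.50 ± 0.21, limma adjusted p = 0.0372). This call depended on the libraries used, since Oasl1 was not called without the doubted libraries (limma adjusted p = 0.0535), and its log2 difference was -0.55 in the lower-numbered and 1.40 in the higher-numbered libraries. Ifit2, named after its values were seen, went the other way from Mx1 but stayed under the filter. Without the doubted libraries it had 0.44, 0.88 and 1.57 TPM in Apc-min Bmal1-null libraries, against 0.04, 0.11 and 0.27 TPM in Apc-min organoids, with no overlap. The doubted library labelled Apc-min Bmal1-null stood at 0.05 TPM and the 1 labelled Apc-min above every other Apc-min library, and with all libraries and no filter its log2 difference was 0.71 ± 0.08 (limma adjusted p = 1.6e-08). Parp14 (-0.41), Isg15 (-0.41) and Bst2 (-0.34) were also lower, and Oas1a was higher (0.36), with a log2 difference of -0.43 in the lower-numbered and 1.11 in the higher-numbered libraries.

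All tested factors except Irf8 were called lower with loss of Bmal1. Irf9 had 3.22, 6.68 and 19.3 TPM in Apc-min Bmal1-null libraries and 6.31, 11.04 and 21 TPM in Apc-min organoids (log2 difference -0.67 ± 0.15, limma adjusted p = 2.08e-04). Irf7 fell by 0.44 and Irf1 by 0.28 on the log2 scale, and Stat2 had 3.11, 7.48 and 14.98 TPM in Apc-min Bmal1-null libraries and 6.99, 11.2 and 16.1 TPM in Apc-min organoids (log2 difference -0.42 ± 0.10, limma adjusted p = 4.39e-04). Their ranges overlapped. Both sensors were lower, with log2 differences of -0.21 for Dhx58 and -0.215 for Ifih1, and the Dhx58 difference was 0.00 in the higher-numbered libraries alone. Gbp3 had 0.04, 0.24 and 0.95 TPM in Apc-min Bmal1-null libraries and 0.26, 1.055 and 1.47 TPM in Apc-min organoids (log2 difference -0.67 ± 0.07, limma adjusted p = 2.95e-09).

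In class I presentation 2 genes rose and 6 fell of 8 tested. Tapbp had 26.2, 42.0 and 87.5 TPM in Apc-min Bmal1-null libraries and 43.7, 66.4 and 96.8 TPM in Apc-min organoids (log2 difference -0.69 ± 0.10, limma adjusted p = 5.15e-07), and without the doubted libraries the ranges, 26.2 to 49.8 and 51.7 to 96.8 TPM, did not overlap. Tap2 had 2.22, 2.83 and 5.19 TPM in Apc-min Bmal1-null libraries and 2.59, 4.21 and 7.96 TPM in Apc-min organoids (log2 difference -0.53 ± 0.10, limma adjusted p = 4.95e-05). Tap1 fell by 0.31 on the log2 scale, H2-D1 by 0.24, Psmb9 by 0.27 and H2-K1 by 0.14. The transporter genes and tapasin thus were called in 1 direction, whereas Psmb10 rose, with 51.02, 83.3 and 199.9 TPM in Apc-min Bmal1-null libraries and 43.9, 69.5 and 100.7 TPM in Apc-min organoids (log2 difference 0.37 ± 0.11, limma adjusted p = 0.00399), and B2m rose by 0.24. Both class II genes tested were lower: H2-Ab1 had 0, 0.08 and 1.82 TPM in Apc-min Bmal1-null libraries and 0, 0.54 and 6.38 TPM in Apc-min organoids (log2 difference -0.71 ± 0.22, limma adjusted p = 0.00555), and Cd74 had medians of 0.425 and 1.25 TPM (log2 difference -0.45 ± 0.09). Both reached the filter in Apc-min organoids only, which favoured a fall, and their calls support nothing further.

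**Figure D3:**
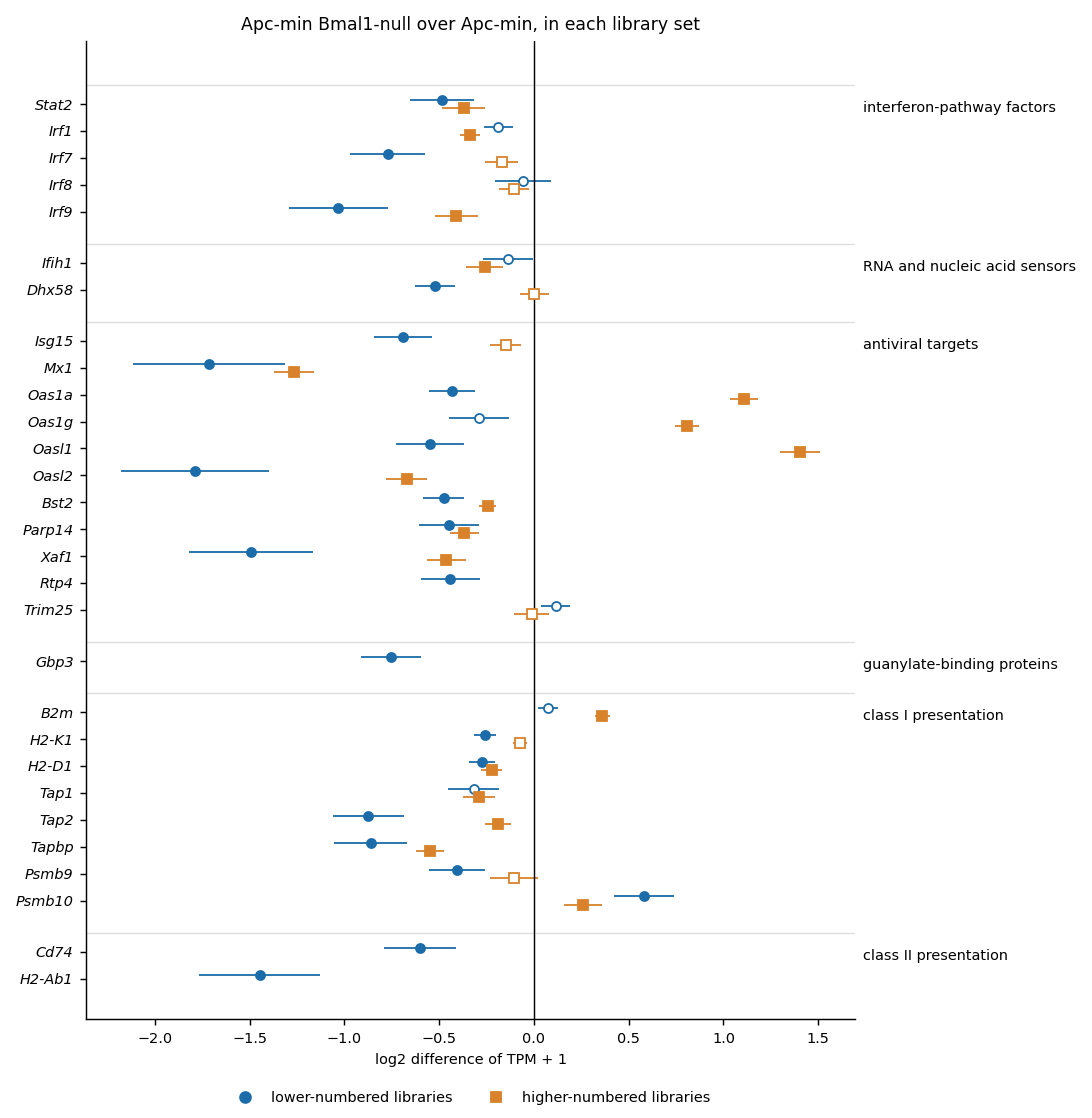
Log2 difference of TPM + 1 (horizontal axis) with its standard error in Apc-min Bmal1-null over Apc-min organoids, in the lower-numbered libraries alone (blue circles) and the higher-numbered libraries alone (orange squares), with filled symbols for members called. Mx1, Oasl2, Xaf1 and Tapbp lie below 0 in both sets, while Oasl1 stands at -0.55 in the lower-numbered and 1.40 in the higher-numbered libraries.

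The 2 library sets of Apc-min organoids differed in several members. Without the doubted library, Oasl1 ran from 16.7 to 31.1 TPM in the 9 lower-numbered libraries and from 3.67 to 14.8 TPM in the 12 higher-numbered libraries. Mx1 ran from 5.22 to 10.6 TPM in the lower-numbered and from 2.79 to 4.87 TPM in the higher-numbered libraries, and H2-Ab1 from 1.21 to 6.38 TPM and from 0 to 1.03 TPM. The sets also did not overlap in Oas1a, Oasl2, Xaf1 and H2-D1. Overlap between sets was not counted over all genes, so these members are not set apart from other genes. Of the 8 epithelial markers, with all Apc-min libraries, Krt20 had medians of 175.0 TPM in the lower-numbered and 18.4 TPM in the higher-numbered set, while Lgals4 (677.8 and 1664 TPM) and Cdx2 (38.04 and 84.4 TPM) went the other way. Means lay nearer for Epcam (623.7 and 660.5 TPM), Vil1 (182.7 and 164 TPM), Cdh1 (317.3 and 343.8 TPM), Krt8 (2502 and 2536 TPM) and Krt18 (2203 and 2545 TPM). The endothelial gene Cdh5 had medians of 14.04 and 2.35 TPM in these sets, and the part of these markers in the differences was not tested. In Apc-min Bmal1-null organoids Oas1a alone separated the sets, with 1.76 to 2.70 TPM in the lower-numbered and 2.86 to 4.36 TPM in the higher-numbered libraries.

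The further pathway genes with loss of Bmal1 in Apc-min organoids were described by the same lists. Receptors and kinases gave 1 rise (Ifngr1, 0.38) and 4 falls of 9, led by Ifnar2, a chain of the type I interferon receptor (-0.42). Induction genes gave 1 rise and 3 falls of 9, led by the adaptor Mavs (-0.39), and negative regulators 1 rise and 2 falls of 4, led by Socs3 (-0.87). Further class I genes gave 0 rises and 4 falls of 7, led by H2-T23, with medians of 26.9 TPM in Apc-min Bmal1-null and 43.9 TPM in Apc-min organoids (log2 difference -0.97), and the lipid-presenting Cd1d1 (-0.72). With set means as units Mavs and H2-T23 were not called (limma adjusted p = 0.0519 and 0.0782). Further class II genes gave 1 rise and 3 falls of 6, led by Rfx5, a subunit of the factor that binds class II promoters (-0.55). The 1 ligand tested, Ifne, was not called over all libraries (log2 difference 0.30, limma adjusted p = 0.0621), but averaged 0.851 TPM in Apc-min Bmal1-null and 1.41 TPM in Apc-min organoids of the lower-numbered set (limma adjusted p = 0.0117), and 1.23 and 0.221 TPM in those of the higher-numbered set (limma adjusted p = 1.92e-05).

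The third comparison asks the same of loss of Bmal1 with wild-type Apc, where differences were small. Of 30 members tested, 3 of them through 1 genotype only, 0 were higher and 4 lower in Bmal1-null than in control organoids, while 2.09% of all 12654 genes tested were called higher and 1.47% lower. At an unadjusted p under 0.05, limma gave 0 members higher and 7 lower, beside 6.51 and 4.07% of all genes. All 4 called were antiviral targets. Oas3 had 0.43, 0.77 and 1.48 TPM in Bmal1-null organoids and 0.72, 1.23 and 2.17 TPM in control organoids (log2 difference -0.31 ± 0.07, limma adjusted p = 0.00495). Oasl1 had 47.5, 72.5 and 88.1 TPM in Bmal1-null organoids and 62.4, 82.9 and 99.8 TPM in control organoids (log2 difference -0.20 ± 0.05, limma adjusted p = 0.018). Oas3 and Usp18 reached the filter in 1 genotype only. Usp18 had medians of 0.87 and 1.08 TPM in Bmal1-null and control organoids (log2 difference -0.20 ± 0.05, limma adjusted p = 0.0124), and Xaf1 medians of 1.08 and 1.59 TPM (log2 difference -0.27 ± 0.08, limma adjusted p = 0.0372). All 4 overlapped between the genotypes, and 0 members were called in the higher-numbered libraries alone or with set means as units. Of all genes the higher-numbered libraries alone called 1.26% higher and 0.711% lower, and set means 0.103 and 0.0237%, so calls were rare among all genes too. In the roles without a call, medians in Bmal1-null and control organoids were 59.9 and 60.6 TPM for Irf8, 9.73 and 10.3 TPM for Ifih1, 950.7 and 973.0 TPM for H2-K1, 1.64 and 1.77 TPM for H2-Ab1, and 0.035 and 0.04 TPM for Gbp7. Of the further pathway genes only Socs3 was called (log2 difference -0.25).

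Whether the difference with loss of Bmal1 itself depended on Apc was tested as an interaction over the 88 libraries. Of 33 members tested, 5 were called higher and 17 lower, beside 18.1% and 29.6% of all 13846 genes tested. Psmb8, Cd74, Gbp3, Usp18 and Oas3 reached a mean of 1 TPM in 1 genotype only, so calls of these 5 support nothing further. The median interaction was -0.20 over the tested members and -0.05 over all genes on the log2 scale. Mx1 had the largest (-1.55 ± 0.19, limma adjusted p = 1.10e-10), set beside a difference of -1.47 with Apc-min, while Mx1 was under the filter with wild-type Apc (medians of 0.92 TPM in Bmal1-null and 0.83 TPM in control organoids). With set means as units only Mx1 (limma adjusted p = 0.0395) and Gbp3 (limma adjusted p = 0.0478) were called, and without the doubted libraries as well 0 members were. Set means called 1.25% of all genes higher and 2.11% lower, or 1.35 and 2.11% without the doubted libraries.

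The last question is whether these genes varied over time. A 24 h cosine was fitted in each genotype, and a straight line over time was fitted beside it, since a single cycle was sampled. In control organoids 0 of 30 members followed the cosine (0.0557% of 12570 genes, and at an unadjusted p under 0.05 6 members and 12.2% of all genes) and 2 the line (2.2%). In Bmal1-null organoids 0 of 27 followed the cosine (0% of 12550 genes, and at an unadjusted p under 0.05 6 members and 6.88% of all genes) and 5 the line (6.71%). In Apc-min organoids 5 of 27 followed the cosine (12% of 12625 genes) and 16 the line (31.2%), while in those with both mutations 1 of 23 followed the cosine (2.59% of 12206 genes) and 2 the line (8.44%).

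The 5 members with a called cosine in Apc-min organoids were Irf8 (1.95-fold between peak and trough, limma adjusted p = 0.0163), Stat2 (1.71-fold, limma adjusted p = 0.0163), Parp14 (1.45-fold, limma adjusted p = 0.0216), Cd74 (1.55-fold, limma adjusted p = 0.0233) and Tap1 (1.36-fold, limma adjusted p = 0.0325). Their fitted peaks lay between 38.9 and 40.9 h. Without the doubted library only Irf8 and Stat2 were called (limma adjusted p = 0.0312 and 0.0364), beside 3.17% of all genes. In either library set alone, or with a line added to the cosine, 0 members were called, but so were 0% of all genes. At an unadjusted p under 0.05 the cosine gave 15 members in the lower-numbered and 8 in the higher-numbered set, beside 31.4 and 25.9% of all genes. Irf8 had 3.51 TPM at 24 h and 8.05 and 10.6 TPM at 46 h in Apc-min organoids, and Stat2 had 7.16 TPM at 24 h and 10.7 and 16.1 TPM at 46 h. All 16 members called with a line in Apc-min organoids had a positive slope, from 0.30 (H2-K1) to 1.59 (Oasl1) on the log2 scale over the series, and 71.2% of all genes called with a line were positive too. With library set as a term 18 members were called, 17 of them positive and Psmb10 negative, and without the doubted library 11 were called, all positive, beside 67.2 and 72.3% of all called genes positive. In Apc-min Bmal1-null organoids Irf8 was called by the cosine (1.88-fold, limma adjusted p = 0.0249) and by the line (1.19 on the log2 scale, limma adjusted p = 1.98e-04), as was Oasl1 by the line (0.81).

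In the genotypes with wild-type Apc the lowest p-values of the cosine fell to other genes. B2m (1.26-fold, limma p = 0.0077, adjusted p = 0.306) and Ifih1 (1.496-fold, limma p = 0.0176, adjusted p = 0.356) had the lowest in control organoids, and Xaf1 (limma p = 0.0057, adjusted p = 0.366) and H2-Ab1 (limma p = 0.00581, adjusted p = 0.366) in Bmal1-null organoids. B2m and H2-Ab1 were called by the line in both, with log2 changes over the series of 0.54 and 0.70 in Bmal1-null organoids and 0.41 and 0.76 in control organoids. Oas1a (-0.26), Tap2 (-0.26) and H2-D1 (-0.21) fell over time in Bmal1-null organoids.

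**Figure D4:**
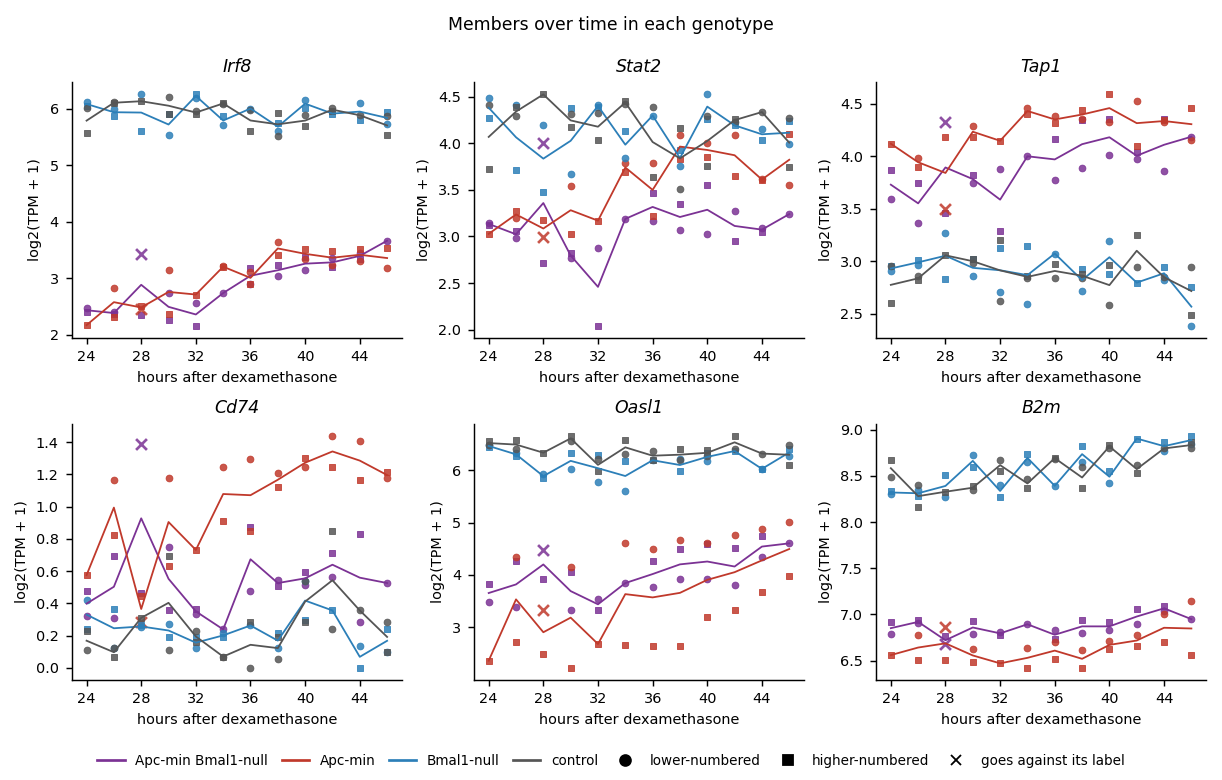
Log2(TPM + 1) of 6 members (vertical axes, which differ between panels) against hours after dexamethasone in the 4 genotypes, with circles for lower-numbered and squares for higher-numbered libraries, crosses for the 28 h libraries that go against their labels and lines through the means at each time. Irf8 climbs in both Apc-min genotypes (log2 change of 1.18 in Apc-min organoids) while its medians are 59.9 TPM in Bmal1-null and 60.6 TPM in control organoids, and B2m rises by 0.54 in Bmal1-null and 0.41 in control organoids.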

How the data were processed

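RNA-seq libraries of organoids of 4 genotypes were analysed as deposited. The authors deposited expression tables in TPM for all genes, named for STAR and RSEM. The tools in the submitters' processing notes are STAR 2.5 and RSEM 1.3.0, and the build is GRCm38. RSEM divides reads that several genes share by its own estimate. A second deposited table per genotype holds TPM that the authors filtered and quantile-normalized, a signal used here as an alternative. The deposited alignment table gives counts of input and uniquely mapped reads and the percent of reads left unmapped as too short, per the file headers. It marks 8 of 96 libraries as not used, and these were not analysed here. Uniquely mapped reads ran from 28.8 to 48.1 M per library.

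Differences were fitted with limma 3.58.1 in R 4.3.3 with an intensity trend on log2(TPM + 1), which understates the change of low genes, over genes with a mean of at least 1 TPM in a genotype compared, with time points as levels. The interaction used all 88 libraries. Rhythms were tested jointly on the cosine and sine terms of a 24 h period (limma's F test) in the 22 libraries of a genotype. The p-values were adjusted by Benjamini-Hochberg over all genes tested, and the fits were checked on simulated data. Samples were grouped by the genotype in the labels. The members and lists were chosen with earlier results of these data known. Members named with values were, in each role, up to 4 called members of largest difference, or, with none called, the member of highest mean; for rhythm, the members called or the 2 of lowest p; and for other pathway genes up to 2 called members of a list. Alternatives were a pseudocount of 0.1 TPM, no filter and a filter at 5 TPM, median-of-ratios scaling, library set as a term, either set alone, set means as units, 1 fit for all libraries, the quantile-normalized table, other time models, and leaving out the doubted libraries. Libraries of the same time point were matched by the time term, and no paired analysis was possible because the labels give the groups no shared replicate numbers. A gene of the pathway lists is not reported here.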

Additional observations from a re-analysis of the deposited data

Results flagged for a closer look

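The interaction of Apc and Bmal1 over 88 libraries was called in 22 members (limma, adjusted p under 0.05). Of all 13846 genes tested 18.1% were called higher and 29.6% lower. With set means as units only Mx1 and Gbp3 kept their calls. The value given below is the log2 difference with loss of Bmal1 in Apc-min organoids minus that with wild-type Apc. Among the antiviral targets it was -1.55 for Mx1, -0.90 for Oasl2, -0.69 for Xaf1, -0.41 for Bst2 and -0.34 for Parp14, and it was positive for Oas3 (0.27), Oas1a (0.45) and Oasl1 (0.66), of which Oas1a (-0.295) and Oasl1 (-0.36) were negative in the lower-numbered libraries alone. All 4 called transcription factors were negative, with -0.74 for Irf9, -0.42 for Stat2, -0.38 for Irf7 and -0.195 for Irf1. Gbp3 stood at -0.62, and like Oas3 and Cd74 it reached the filter in 1 genotype only. In class I presentation it was -0.695 for Tapbp, -0.59 for Tap2, -0.36 for Tap1, -0.25 for H2-D1 and -0.14 for H2-K1, against 0.24 for B2m and 0.45 for Psmb10. In class II presentation it was -0.665 for H2-Ab1 and -0.47 for Cd74. The part of the library sets in these values was not tested beyond the alternatives given next.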

How the results depend on the processing

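Of the values of named members under the alternatives, 640 kept direction and call, 88 lost the call and 6 changed sign, and 32 of the lost calls came with set means as units and another 29 with set means without the doubted libraries. The sign changed for H2-Ab1 in Apc-min over control (0.63 in the lower-numbered libraries), for Dhx58 (0.002 in the higher-numbered) and Oasl1 (-0.55 in the lower-numbered) in Apc-min Bmal1-null over Apc-min, and in the interaction for Irf1 (0.006) and Oasl1 (-0.36) in the lower-numbered and H2-Ab1 (0.046) in the higher-numbered libraries. The cause was not tested. With a filter at 5 TPM, which tests fewer genes, 1 member was called lower in Bmal1-null over control. Members called lower were 9 in Apc-min over control (5 higher) and 10 in Apc-min Bmal1-null over Apc-min. They were 11 in Apc-min Bmal1-null over Bmal1-null and 11 in the interaction. Of all genes this filter called 1.2% lower in Bmal1-null over control and 27.6 to 37% lower in the others. It called 51.9% of all genes higher in Apc-min over control. With no filter 9 members were higher in Apc-min Bmal1-null over Bmal1-null, beside 27.9% of all genes. In the higher-numbered libraries alone, members called lower were 0 in Bmal1-null over control, 13 in Apc-min Bmal1-null over Apc-min and 8 in the interaction. Of all genes 0.711, 35.3 and 24.8% were called lower there. In the lower-numbered libraries alone, members called higher were 1 in Apc-min Bmal1-null over Apc-min and 2 in the interaction, beside 34.5 and 29.7% of all genes. With set means as units 0 were lower in Bmal1-null over control, 0 higher and 5 lower in Apc-min Bmal1-null over Apc-min, and 0 higher and 2 lower in the interaction; without the doubted libraries as well, an alternative chosen after seeing the data, 0 and 7, and 0 and 0. Set means over all libraries called 0.0237% of all genes lower in Bmal1-null over control. They called 4.21% higher and 10.7% lower in Apc-min Bmal1-null over Apc-min, and 1.25 and 2.11% in the interaction. All libraries in 1 fit gave 1 member lower in Bmal1-null over control, beside 0.846% of all genes.

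The 24 h cosine in Apc-min organoids called 3 members with no filter, 3 with a filter at 5 TPM, 3 in the quantile-normalized table, 17 with library set as a term, 2 without the doubted library, and 0 in either set alone, with a line added or with time points as levels. Of all genes these settings called 1.98, 13.3, 6.39, 33.1 and 3.17%, and 0% where 0 members were called. A line called 16, 18 with a set term and 11 without the doubted library (31.2, 43.1 and 25.4% of all genes). In Apc-min Bmal1-null organoids the cosine called 3 without the doubted library (11.9% of all genes) and 0 with no filter, in the lower-numbered set, with a line added or with time points as levels (at most 0.748% of all genes), and a line called 2, 3 with a set term and 3 without the doubted library (8.44, 9.42 and 17.5% of all genes). In Bmal1-null organoids a line called 5, and 4 with a set term (6.71 and 6.86% of all genes). In control organoids the cosine with a set term called 1, a line 2, and a line with a set term 6 (2.3, 2.2 and 5.71% of all genes). The lines with a set term or without doubted libraries were chosen after seeing the data.

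Depth per gene is not recoverable from TPM, so members near 1 TPM carry unknown counting error, and a single cycle was sampled.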
